A study of Mus musculus with 18 samples.

Results

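Growing myoblasts of the overexpressor clone were compared with growing myoblasts of the knockout clone, over all genes of the deposited count table. The comparison used 6 of the 18 libraries of the series, 3 per clone, chosen by their labels alone. All are C2C12 cells, an immortal mouse myoblast line that fuses into multinucleate myotubes when serum is withdrawn. Both clones were edited with CRISPR guide pairs aimed at the Meg3 promoter region and each was grown from a single cell. The labels call the first a Dlk1-Dio3 overexpressor and the second a Dlk1-Dio3 knockout. Control myoblasts, a sorted population that received the pX458 vector without a guide pair, are given beside the clones where this helps to place them. Each genotype is thus 1 clone, so genotype and clonal origin cannot be told apart, and the bases changed in either clone are not given in the sources used here. The replicates A, B and C are cultures of the same clone, so the p-values measure the spread between cultures and not between independent edits.

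The Dlk1-Dio3 region is an imprinted domain. Its paternal copy encodes the proteins Dlk1, Rtl1 and Dio3, and its maternal copy gives the long noncoding RNAs Meg3, Rian and Mirg, which also carry many microRNAs and small nucleolar RNAs and are generally transcribed under the control of the Meg3 promoter and the regulatory region before it. In skeletal muscle, Myod1 and Myf5 commit cells to the lineage, Myog starts terminal differentiation, and the cells then leave the cell cycle, fuse and build sarcomeres. The title of the series names mitochondrial respiration, chromatin structure and cell state as the processes of interest, and the gene groups below cover these and others of muscle, matrix and signalling.

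The 6 libraries held between 41544358 and 53451258 counts. A gene with no count could therefore be present at up to 3 counts, or 0.0534 to 0.0693 CPM (counts scaled to library size and composition with TMM factors), and this limit covers counting error only. Overexpressor culture B stood apart from its replicates: the chi-square statistic per degree of freedom was 34.1 between A and B and 30.2 between B and C, against 7.86 between A and C and 4.46 to 7.70 among the knockout cultures. The biological coefficient of variation was 11.6% in the overexpressor and 4.23% in the knockout. Muscle genes were lower in culture B than in the mean of A and C, by a log2 difference of -0.89 for Ckm, -0.78 for Acta1 and -0.52 for Myh3. The gene list counts that lead a paragraph below are therefore also given without it.

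The libraries carried the markers of the labelled cell type. All 8 myoblast markers were measured, and their summed level was 4807 to 5650.4 CPM in the overexpressor, 5658 to 6378 CPM in the knockout and 2641 to 2855 CPM in the control. Of the 8, 4 were higher and 2 lower in the overexpressor (median log2 fold change 0.16), so the sums do not give the direction of each member. The knockout libraries labelled myoblast also held contractile genes of differentiated muscle. The 23 genes of the thick filament and M-band summed to 7606 to 9965 CPM there, against 319 to 473 CPM in the overexpressor and 138 to 232 CPM in the control. In bulk RNA, a larger share of differentiated cells in a culture and more muscle RNA in each cell cannot be told apart. Markers of other lineages were also examined. Adipoq, Plin1, Pecam1, Ptprc, Epcam, Rbfox3 and Sox10, which define fat, vessel, blood, epithelial and neural cells, did not pass the filter on low counts, and the 2 endothelial markers that passed it summed to at most 0.185 CPM in any of the 6 libraries. The 2 blood and immune markers that passed the filter summed to 1.34 to 1.6 CPM in the overexpressor and 1.31 to 2.17 CPM in the knockout. Of these 2, 1 was lower, and none without overexpressor B, overexpressor C or knockout C. Other markers were measured, and members of the same list differed in both directions. Of the 6 fibroblast markers that passed the filter, 2 were higher and 4 lower in the overexpressor, with sums of 94.5 to 104 CPM there, 529.6 to 569 CPM in the knockout and 767 to 799 CPM in the control. The 2 epithelial markers summed to 104 to 122 CPM in overexpressor cultures and 9.92 to 13.1 CPM in the knockout, nearly all of it Krt14, while Cdh1, the epithelial cadherin, was lower (log2 fold change -1.96). Of the 5 neural markers, 2 were higher and 1 lower (2 lower without overexpressor A), with sums of 193 to 217 and 4.3 to 4.54 CPM that were mostly Tubb3. Of 6 chondrocyte markers, 2 were higher and 4 lower (2 lower without overexpressor A or C or knockout A or B), with sums of 179 to 193 and 114 to 126 CPM. The 5 osteoblast markers summed to 48.5 to 56.7 and 63.9 to 69.7 CPM, with 1 higher and 2 lower, and the 3 adipocyte markers to 29.9 to 32.3 and 46.3 to 48.2 CPM, with 1 higher and 1 lower (2 lower without culture B). The part of these markers in the results below was not tested.

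The cluster RNAs were present in 1 clone only. Meg3 (chr12:109541001-109571726, plus strand, GRCm38, a long noncoding RNA that binds chromatin regulators) had 5363, 6924 and 6199 counts in overexpressor cultures A, B and C and 0 counts in each knockout culture. This was 133 ± 22.9 CPM (SD, n = 3) in the overexpressor and at least 2316-fold higher than in the knockout (adjusted p = 1.06e-08). Rian (chr12:109603940-109661716, the noncoding host of many small nucleolar RNAs) had 10088, 11467 and 9503 counts against 0 in each knockout culture, at least 3873-fold higher (adjusted p = 1.41e-12). Mirg (chr12:109729764-109749460, a microRNA host) had 512, 511 and 474 counts against 0, at least 187-fold higher (adjusted p = 3.11e-10). The overexpressor cultures lay far above every knockout culture for all 3 RNAs. Control myoblasts, however, also had 0 counts of Meg3 and Mirg and 1 count of Rian in all, so these RNAs mark the overexpressor clone and do not separate the knockout label from the control label.

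Transcripts of the protein-coding genes of the cluster were at or near 0. Dlk1, a transmembrane relative of the Notch ligands, and Dio3, which inactivates thyroid hormone, had 0 counts in all 6 libraries and were not tested. Rtl1, a retrotransposon-derived protein needed in placenta and muscle, had 3, 5 and 2 counts in the overexpressor cultures and 6, 14 and 6 in the knockout cultures. All 3 knockout counts exceeded the overexpressor counts, but on the CPM scale the lowest knockout culture lay just under the highest overexpressor culture, and the difference did not pass the test (log2 fold change -1.18, SE 0.53, adjusted p = 0.0804). Rtl1 lies opposite 6 microRNA genes and Meg3 opposite another annotated gene, and the use of strand in counting is not given in the sources used here.

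**Figure D1:**
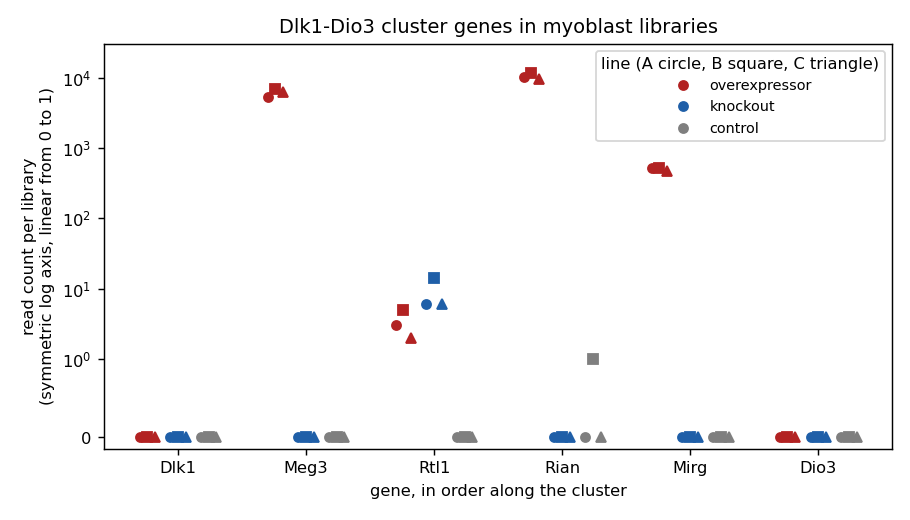
Read counts of the 6 cluster genes (x axis, in their order along the cluster) in each myoblast library (y axis, symmetric log scale, linear from 0 to 1). Colours mark the clone or control and symbols the culture A, B or C. Meg3, Rian and Mirg hold 474 to 11467 counts in the overexpressor libraries and 0 in the knockout libraries, while Dlk1 and Dio3 are at 0 in all of them.

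The sequence before the Meg3 start is shown because both clones were edited in this promoter region. RefSeq holds 2 promoters of Meg3, and only the 1 nearest the annotated gene start is shown. It lies at chr12:109540746-109540995 on the plus strand of GRCm38.p6. The 250 bases run 5′ to 3′ up to the base before the RefSeq start, which lies just before the annotated gene start (109541001). Capitals mark a match to TGACGTCA, the palindromic cAMP-response element, and overlapping matches to TATAAA on both strands.
Meg3 promoter: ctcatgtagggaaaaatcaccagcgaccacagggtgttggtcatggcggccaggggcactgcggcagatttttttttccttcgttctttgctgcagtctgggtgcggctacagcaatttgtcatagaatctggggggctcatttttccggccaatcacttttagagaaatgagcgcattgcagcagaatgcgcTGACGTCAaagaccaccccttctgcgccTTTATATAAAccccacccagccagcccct
The TGACGTCA match begins 57 bases before the RefSeq start, and such a match was present in 1.55% of 32851 RefSeq promoter windows of the same length. The TATAAA matches begin 29 and 25 bases before the RefSeq start, and 12.4% of the windows held 1 on either strand. Both motifs were searched after the data had been seen. A match describes the reference letters only. Which of these bases each clone still carries was not analysed here.

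Across the transcriptome the clones differed widely. Of 17912 genes tested, 9417 (52.6%) passed an adjusted p of 0.05, with 4602 (25.7%) higher and 4815 (26.9%) lower in the overexpressor. At least 2-fold differences were fewer, 3383 genes (18.9%), of which 1459 (8.15%) were higher and 1924 (10.7%) lower. The cultures of the clones did not overlap for 11133 genes (62.2%). Leaving out overexpressor culture B gave 9038 calls. When the test asked for a difference beyond 2-fold in place of any difference, 2127 genes passed, 873 higher and 1254 lower. The median log2 fold change of all tested genes, overexpressor over knockout, was -0.02, and the counts of each group below are read against these shares.

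**Figure D2:**
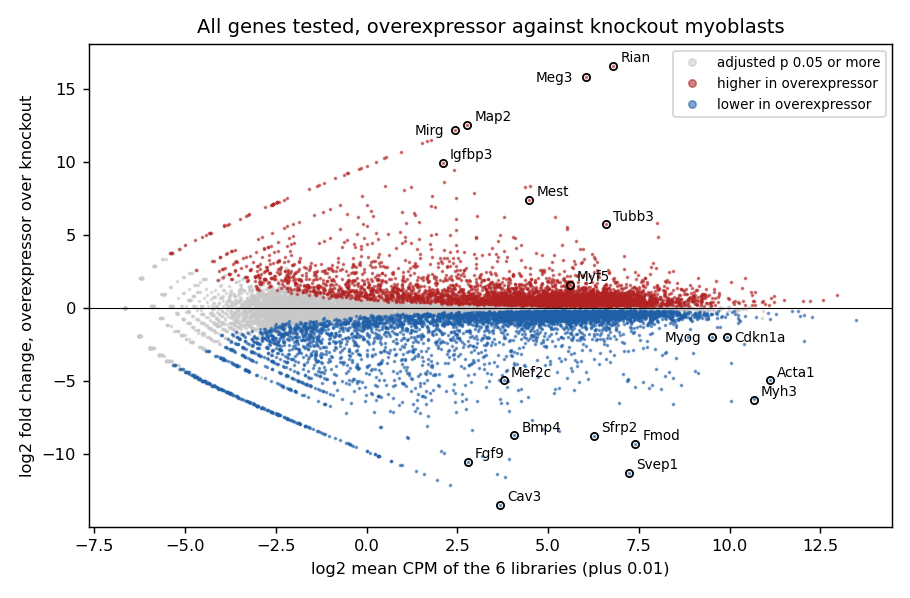
Log2 fold change of each tested gene, overexpressor over knockout (y axis), against its log2 mean CPM over the 6 libraries (x axis). Red and blue points passed the test as higher or lower in the overexpressor, and grey points did not. Rian, Meg3 and Mirg stand with Map2 at the top, and Cav3, Svep1 and Fgf9 are among the lowest.

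The steepest differences were nearly all of the present or absent kind. Among genes of at least 5 CPM in 1 clone, the 10 lowest in the overexpressor were Cav3, Psg28, Mageb4, Rtl3, Pid1, Tnmd, Svep1, Eva1a, Fgf9 and Klhl13. Cav3, the muscle caveolin of the sarcolemma, had 24, 29.3 and 23 CPM in the knockout cultures and 0 counts in every overexpressor culture, at least 393-fold lower (adjusted p = 9.29e-14). Svep1, a large secreted adhesion protein, had 286, 296 and 317 CPM against 0.0798, 0.216 and 0.0693 CPM (log2 fold change -11.24, SE 0.53, adjusted p = 1.36e-10). For both, every knockout culture was far above every overexpressor culture. Tnmd, a tendon glycoprotein, had 23.1, 25.3 and 23.8 CPM in the knockout and at most 1 count per overexpressor culture, at least 373-fold lower (adjusted p = 1.92e-14). Klhl13, a ubiquitin ligase adaptor on the X chromosome, had 29.3, 33.1 and 27.9 CPM against 0, 0.0216 and 0.0462 CPM (at least 466-fold, adjusted p = 1.33e-10), and the control had 60.8 ± 4.33 CPM (SD, n = 3), so its low value belonged to the overexpressor. Psg28 and Mageb4 belong to gene families with close copies, and their counts are uncertain.

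The 10 highest were Rian, Meg3, Map2, Mirg, Parp11, Pax5, Gzme, Igfbp3, Zfp422 and Mcpt8. Map2, a microtubule-associated protein best known from neurons, had 12.4, 16.7 and 11.8 CPM in the overexpressor cultures and 0 counts in the knockout, at least 237-fold higher (adjusted p = 6.16e-09). Igfbp3, a secreted binding protein for insulin-like growth factors, had 9.64, 7.7 and 8.18 CPM against 0.0215, 0 and 0 CPM, at least 148-fold higher (adjusted p = 1.72e-14). Its control level was 53.7 ± 1.24 CPM (SD, n = 3), above both clones. Parp11, a mono-ADP-ribosyltransferase, had 6.49, 6.94 and 6.96 CPM against 0 and 12.7 ± 0.728 CPM (SD, n = 3) in the control (adjusted p = 3.25e-13). Pax5, a B-cell transcription factor, had 6.55, 6.34 and 6.03 CPM against 0, at least 109.6-fold higher (adjusted p = 2.17e-09). For Parp11 and Igfbp3 the control resembled the overexpressor in being well above the knockout, whereas for Pax5 the control was at 0.342 ± 0.0661 CPM (SD, n = 3).

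Myogenic transcription factors differed in both directions. Of 16 myogenic transcription factors, 4 were higher and 6 lower in the overexpressor, with a median of -0.29, and 4 and 7 without culture B. Myod1, the factor that commits cells to the lineage, measured 364, 295 and 349.7 CPM in overexpressor cultures and 324, 317 and 313 CPM in the knockout. The cultures overlapped and the difference did not pass the test (log2 fold change 0.08, SE 0.10, adjusted p = 0.508). Myf5, its relative of proliferating myoblasts, measured 73.4, 82 and 63.6 CPM against 25.2, 23.3 and 23.2 CPM. Every overexpressor culture was above every knockout culture, by 3.05-fold in the means (log2 fold change 1.61, SE 0.18, adjusted p = 1.05e-06), and the control lay at the knockout level with 25.5 ± 1.61 CPM (SD, n = 3). Pax7, the satellite cell factor, was also higher, at 31.1 ± 0.919 against 18.2 ± 0.428 CPM (SD, n = 3, adjusted p = 1.02e-06). Its control level was above both clones, at 42.1 ± 1.82 CPM (SD, n = 3).

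Myog, which starts terminal differentiation, was lower in the overexpressor. It measured 321, 226 and 344 CPM in cultures A, B and C, and 1082, 1249 and 1139 CPM in the knockout cultures. The clones did not overlap, and their means of 297 ± 62.5 and 1157 ± 84.9 CPM (SD, n = 3) differed 3.9-fold (log2 fold change -1.96, SE 0.14, adjusted p = 3.38e-09), with a log2 fold change of -1.80 without culture B. Control myoblasts had 105 ± 18.6 CPM (SD, n = 3), lower than both clones. The Mef2 factors named here were lower as well. Mef2c, a MADS-box factor of differentiating muscle, measured 0.619, 1.1 and 0.901 CPM against 26.9, 29.6 and 23 CPM (log2 fold change -4.93, SE 0.35, adjusted p = 1.25e-08), and Mef2a measured 111 ± 16.7 against 352 ± 14.3 CPM (SD, n = 3, adjusted p = 5.26e-06). Myf6, a factor of late differentiation, was at 0.669 ± 0.0992 against 2.46 ± 0.155 CPM (SD, n = 3, adjusted p = 1.24e-07), whereas Tcf3, an E protein that pairs with the myogenic factors, was higher (log2 fold change 0.29, adjusted p = 0.00398). Among 15 repressors of the program, 5 were higher and 5 lower, with a median of 0.12. Id2, which sequesters the partners of Myod1, was 2.32-fold higher in the overexpressor, at 100.2 ± 6.44 against 43.3 ± 2.93 CPM (SD, n = 3, adjusted p = 8.5e-10), and Id1 was 1.56-fold higher (adjusted p = 3.54e-07). Heyl and Snai1 were lower (log2 fold changes -1.94 and -1.07, adjusted p = 2.1e-07 and 2.35e-07).

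The Myog promoter is shown as the regulatory sequence of the differentiation factor that separates the clones. It covers chr1:134289754-134290003 on the plus strand of GRCm38.p6, the 250 bases before the RefSeq start. Capitals are on its matches to CANNTG, the E-box read by myogenic factors, as found on either strand.
Myog promoter: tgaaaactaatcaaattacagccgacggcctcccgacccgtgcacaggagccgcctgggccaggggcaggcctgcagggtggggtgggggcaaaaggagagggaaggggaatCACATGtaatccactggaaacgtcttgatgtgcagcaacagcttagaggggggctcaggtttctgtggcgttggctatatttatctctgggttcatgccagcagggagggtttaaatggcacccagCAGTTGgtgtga
The E-boxes CACATG and CAGTTG begin 138 and 12 bases before the RefSeq start. The annotated Myog gene starts at 134289989, inside this window, and CAGTTG lies after that position. An E-box was present in 66.2% of the 32851 windows, so its presence is common. The letters CAGCTG, held by 13.0% of windows, were not in this one.

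The sarcomere lists had the lowest medians of the 48 gene lists. Of 23 genes of the thick filament and M-band, 19 were lower and 1 higher in the overexpressor, with a median log2 fold change of -4.76 (18 lower, 1 higher and -4.54 without culture B). Of 27 genes of the thin filament and Z-disc, 23 were lower and 1 higher, with a median of -3.47 (the same counts and -3.37 without culture B). Myh3, the embryonic myosin heavy chain (chr11:67078300-67102291), measured 37.1, 32.8 and 57.7 CPM in the overexpressor cultures and 2791, 3697 and 3118 CPM in the knockout cultures. The knockout was 75.3-fold higher in the means, with no overlap (log2 fold change -6.24, SE 0.24, adjusted p = 6.76e-12). Myh7, the slow myosin, measured 2.58, 1.88 and 3.77 CPM against 208, 297 and 226 CPM (log2 fold change -6.48, SE 0.22, adjusted p = 1.41e-12), and Myl4, an embryonic light chain, 6.77, 5.76 and 9.04 CPM against 604, 819 and 627 CPM (log2 fold change -6.57, SE 0.24, adjusted p = 3.96e-12). Mybpc1, the slow myosin-binding protein, had the lowest value of the thick filament list (-6.91, adjusted p = 7.54e-11). Mylk2, the skeletal myosin light chain kinase, was the exception, at 16.5 ± 2.31 against 12.2 ± 0.64 CPM (SD, n = 3, log2 fold change 0.43, adjusted p = 0.0101), and it did not pass without overexpressor culture A (adjusted p = 0.0673).

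On the thin filament, Acta1, the skeletal actin, measured 141, 94.4 and 183 CPM in overexpressor cultures and 3841, 5002 and 3918 CPM in the knockout. The clones were separated 30.5-fold in the means (log2 fold change -4.93, SE 0.27, adjusted p = 5.87e-10), although culture B was the lowest of the overexpressor cultures. Actc1, the cardiac actin of immature muscle, measured 28.4, 18.9 and 28.8 CPM against 1898, 2359 and 2025 CPM (log2 fold change -6.37, SE 0.17, adjusted p = 8.98e-15), and Actn2, the Z-disc actinin, 0.299, 0.129 and 0.277 CPM against 39.5, 60 and 41.6 CPM (log2 fold change -7.63, SE 0.29, adjusted p = 4.73e-12). The troponin genes Tnnc1, Tnnt2 and Tnnc2 were 37.8-fold, 19.6-fold and 38.6-fold lower in the overexpressor in their means (adjusted p = 8.1e-12, 1.11e-15 and 3.58e-12). Tnnc2 overlaps Ube2c on the opposite strand. Ttn, the giant spring of the sarcomere, differed less, at 58.9 ± 13.8 against 366 ± 36.5 CPM (SD, n = 3, adjusted p = 1.73e-06). For all 19 and all 23 lower genes of the sarcomere lists the control level was nearer to the overexpressor than to the knockout on the log2 scale. Myh3, for example, was at 47.2 ± 12 CPM and Acta1 at 76.7 ± 24.5 CPM in the control (SD, n = 3).

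**Figure D3:**
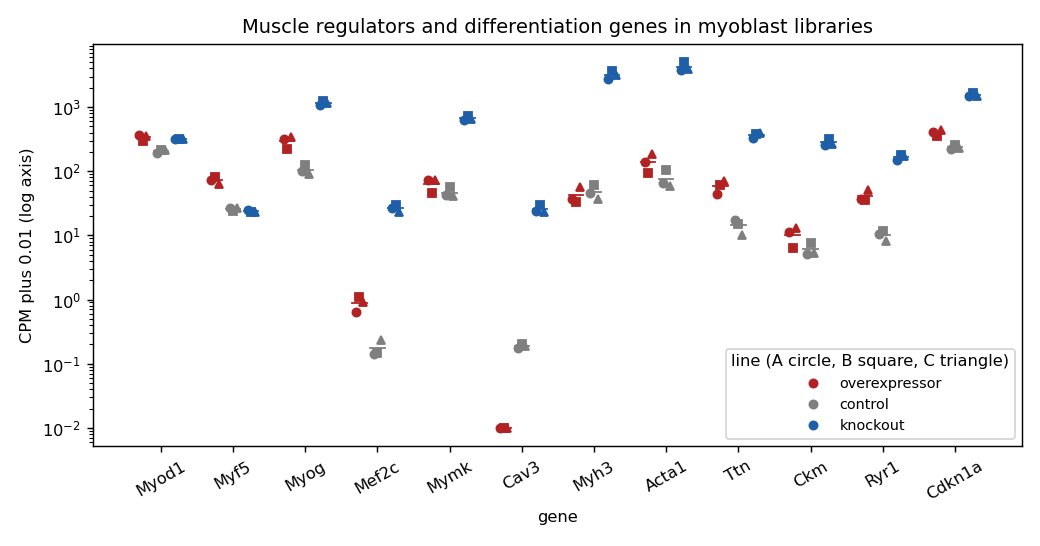
CPM plus 0.01 (log axis) of 12 muscle genes in each myoblast library, with colours for clone or control, symbols for cultures A, B and C, and horizontal bars for group means. Myod1 overlaps between the clones, Myf5 is higher in the overexpressor, and the genes from Myog to Cdkn1a are higher in the knockout, where Myh3 lies at 2791 to 3697 CPM against 32.8 to 57.7 CPM in the overexpressor.

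Membrane systems of contraction followed. Of 18 genes of excitation-contraction coupling, 17 were lower in the overexpressor and none was higher, with a median of -2.01 and the same counts without culture B. Casq1, the calcium buffer of the fast fiber store, measured 0.0798, 0.0647 and 0.0462 CPM against 4.54, 9.16 and 4.64 CPM (log2 fold change -6.52, SE 0.49, adjusted p = 2.37e-08). Cacna1s, the voltage sensor, measured 3.23, 2.39 and 4.83 CPM against 104, 129.7 and 102 CPM (log2 fold change -5.01, SE 0.19, adjusted p = 2.06e-12), and Ryr1, the calcium release channel, 37.3, 35.7 and 50.6 CPM against 149, 182 and 174 CPM (log2 fold change -2.03, SE 0.14, adjusted p = 1.55e-09). No overexpressor culture reached a knockout culture for these 3 genes. Ckm, the creatine kinase that buffers muscle ATP, measured 11.2, 6.3 and 12.9 CPM against 260.3, 321 and 267 CPM (log2 fold change -4.80, SE 0.23, adjusted p = 1.54e-10). Of 10 genes of the neuromuscular synapse, 7 were lower and 1 higher. Dok7, an activator of the receptor kinase MuSK, was 7.13-fold lower and the acetylcholine receptor subunits Chrng and Chrnd 5.24-fold and 3.66-fold lower (adjusted p = 3.62e-12, 6.08e-10 and 1.49e-09). Chrna1, the alpha subunit, was at 963 ± 68.3 against 1057 ± 49.5 CPM (SD, n = 3) and did not pass the test (adjusted p = 0.0981). The adjusted p was 0.0351 when scaled by library totals and 0.38 without culture B. Lrp4, the agrin receptor, was higher (log2 fold change 0.32, adjusted p = 0.000161).

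The fusion list split evenly, with 8 of 16 genes higher and 8 lower (median -0.12, and the same counts and -0.15 without culture B). Mymk, the myomaker protein without which myoblasts do not fuse, measured 73.9, 45.7 and 73 CPM in overexpressor cultures against 636, 728 and 648 CPM in the knockout, 10.4-fold apart in the means with no overlap (log2 fold change -3.38, SE 0.18, adjusted p = 2.46e-10). Mymx, the small myomixer protein, was 3.51-fold lower (adjusted p = 1.31e-09), and Dysf, the membrane repair protein dysferlin, 4.24-fold lower (adjusted p = 1.95e-11). Ncam1, a neural cell adhesion molecule of myoblasts, was also lower (log2 fold change -0.64, adjusted p = 2.85e-08). In the other direction, Jam2, a junctional adhesion molecule, measured 177, 207 and 161 CPM against 52.7, 54.4 and 52.5 CPM (log2 fold change 1.77, SE 0.11, adjusted p = 2.64e-10). Cd9, a tetraspanin, was 2.45-fold and Myof, the ferlin myoferlin, 1.84-fold higher (adjusted p = 2.74e-12 and 4.9e-09).

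Most mitosis genes were higher in the overexpressor. Of 34 mitosis genes, 23 were higher and none was lower, with a median of 0.57 (21, none and 0.54 without culture B). On the log2 scale the control was nearer to the overexpressor for 17 of the 23 and nearer to the knockout for 6. Cdc25b, the phosphatase that opens mitosis, measured 318, 279 and 319.6 CPM against 85.9, 78.2 and 83.7 CPM (log2 fold change 1.89, SE 0.07, adjusted p = 3.61e-13). Ccnb1, the mitotic cyclin, measured 86.9, 91.7 and 82.2 CPM against 54.5, 48.9 and 52.6 CPM (log2 fold change 0.74, SE 0.12, adjusted p = 5.15e-05), and Kif20a, a kinesin of cytokinesis, was 1.99-fold higher (adjusted p = 2.94e-07). Bub1, a checkpoint kinase, measured 48.6, 78.8 and 53.1 CPM with culture B highest, and 30.4, 27.7 and 28.4 CPM in the knockout (adjusted p = 0.00681, and 0.0429 without culture B). Not every marker of division separated the clones: Cdk1 and Top2a overlapped between the clones (adjusted p = 0.358 and 0.875). Mki67, at 178, 284 and 184 against 146, 142 and 138 CPM with culture B highest, had an adjusted p of 0.0643. It was 0.0128 with DESeq2 and 0.309 without culture B.

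Of 42 DNA replication genes, 20 were higher and 5 lower, with a median of 0.25 (18, 3 and 0.27 without culture B, and 3, 3 and 2 lower without overexpressor A, overexpressor C or knockout C). For 21 of the called genes the control was nearer to the overexpressor, and for 4 nearer to the knockout. The list summed to 3362 to 3532 CPM in the overexpressor, 2835 to 3034 CPM in the knockout and 3739 to 4174 CPM in the control. E2f1, a transcription factor of S-phase entry, measured 77.9, 68 and 73.9 CPM against 28.5, 25.4 and 27 CPM (log2 fold change 1.44, SE 0.09, adjusted p = 2.58e-10). Rrm2, which makes deoxynucleotides, and Pcna, the polymerase clamp, were 1.85-fold and 1.68-fold higher (adjusted p = 3.94e-09 and 1.48e-06), while E2f2 and the thymidylate enzyme Tyms were lower (log2 fold changes -1.04 and -0.66, adjusted p = 2.82e-08 and 1.33e-05). Among 16 cell cycle exit genes, 4 were higher and 8 lower, with a median of -0.35 (4, 7 and -0.28 without culture B). Cdkn1a, the p21 inhibitor of cyclin-dependent kinases (chr17:29090976-29100727), measured 416, 349 and 438 CPM in overexpressor cultures and 1492, 1688 and 1513 CPM in the knockout. All knockout cultures were above all overexpressor cultures, 3.9-fold in the means (log2 fold change -1.96, SE 0.10, adjusted p = 1.95e-11), with 237 ± 19.5 CPM in the control (SD, n = 3). Rb1, the retinoblastoma protein, was 2.74-fold lower (adjusted p = 1.68e-05), as were the growth-arrest genes Gadd45a and Gadd45b (2.81-fold and 3.76-fold, adjusted p = 1.43e-09 and 1.3e-11). Ccnd1, the G1 cyclin, was 1.97-fold higher (adjusted p = 0.000439), and Ccnd3, the cyclin of differentiating muscle, 1.51-fold lower (adjusted p = 0.000132).

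Respiratory chain genes shifted together by a small amount. Of 78 nuclear-encoded subunits tested, 61 were lower and 1 higher in the overexpressor, with a median log2 fold change of -0.42 (59, 2 and -0.37 without culture B). By complex, 30 of 37 genes of complex I, 3 of 4 of complex II, 8 of 9 of complex III, 10 of 13 of complex IV and 10 of 15 of ATP synthase were lower. Their summed level was 8934 to 10339 CPM in the overexpressor, 13843 to 13985 CPM in the knockout and 10375 to 10638 CPM in the control. The overexpressor range thus ended just below that of the control, and the knockout lay well above it. On the log2 scale the control was nearer to the overexpressor for 51 of the called subunits and nearer to the knockout for 11. Ndufs1, the largest subunit of complex I, measured 116, 122 and 108 CPM against 189, 192 and 191 CPM (log2 fold change -0.72, SE 0.10, adjusted p = 4.29e-06). Cyc1, the cytochrome of complex III, measured 166, 139 and 167 CPM against 298, 319 and 311 CPM (log2 fold change -0.97, SE 0.10, adjusted p = 1.01e-07), and Atp5b, the catalytic subunit of ATP synthase, 1775, 1504 and 1708 CPM against 2735, 2777 and 2756 CPM (log2 fold change -0.73, SE 0.08, adjusted p = 2.45e-07). None of these 3 overlapped between the clones. Cox6a2, the heart and muscle form of a complex IV subunit, was the extreme, at 0.12, 0.0431 and 0.30 CPM against 11.9, 14 and 10.7 CPM (log2 fold change -6.32, SE 0.29, adjusted p = 1.74e-11). Sdha, of complex II, did not pass the test (log2 fold change 0.07, adjusted p = 0.312), and Atp5j was the 1 gene higher (log2 fold change 0.22, adjusted p = 0.00525). The mitochondrially encoded subunits were not analysed here.

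Of 18 regulators of mitochondrial biogenesis, 9 were lower and none was higher (median -0.36, with the same counts and median without culture B). Ppargc1a, the coactivator that drives mitochondrial gene expression, measured 0.279, 0.474 and 0.162 CPM in overexpressor cultures and 7.12, 7.47 and 6.66 CPM in the knockout. The overexpressor lay at the control level of 0.304 ± 0.139 CPM (SD, n = 3), and the clones differed 23.2-fold without overlap (log2 fold change -4.52, SE 0.39, adjusted p = 2.72e-08). Tfam, which packages mitochondrial DNA, measured 32.6, 39.3 and 33.6 CPM against 57.8, 60.6 and 59.8 CPM (log2 fold change -0.76, SE 0.12, adjusted p = 2.74e-05), and Twnk, the mitochondrial helicase, was 1.82-fold lower (adjusted p = 1.15e-08). Twnk overlaps Mrpl43 on the opposite strand. These genes moved in the same libraries as the muscle genes above, and the part of the muscle program in the mitochondrial shift was not tested.

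Glycolysis genes differed in both directions. Of 27 genes of glycolysis and glycogen, 12 were higher and 11 lower, with a median of -0.12 (12, 10 and -0.11 without culture B). Pfkp, the platelet form of phosphofructokinase, measured 143, 128 and 135 CPM against 29.6, 30.9 and 28.1 CPM (log2 fold change 2.20, SE 0.06, adjusted p = 1.09e-14), and Pkm, Ldha and Pgk1 were 1.61-fold, 1.52-fold and 1.79-fold higher in the overexpressor (adjusted p = 3.27e-06, 1.41e-05 and 5.08e-06). Pygm, the muscle glycogen phosphorylase, measured 1.98, 1.38 and 1.83 CPM against 70.2, 87.2 and 72.8 CPM (log2 fold change -5.47, SE 0.16, adjusted p = 3.17e-14), and Pgam2, the muscle phosphoglycerate mutase, was 31.7-fold lower (adjusted p = 6.93e-10). Pgam1, its general counterpart, was 1.79-fold higher (adjusted p = 1.12e-05). Of 23 genes of fatty acid use, 7 were higher and 11 lower (median -0.17). Hadha and Hadhb, the subunits of the mitochondrial trifunctional protein, were 2.19-fold and 2.41-fold lower and Cd36, the fatty acid transporter, 9.81-fold lower (adjusted p = 5.12e-12, 1.81e-08 and 4.78e-06). Cpt1a, which admits fatty acids to mitochondria, was 2.2-fold higher (adjusted p = 2.37e-08).

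Amino acid and stress-response genes were lower in the overexpressor. Of 20 genes of the integrated stress response, 15 were lower and 1 higher, with a median of -0.64 (the same counts and -0.61 without culture B). Atf4, its transcription factor, measured 285, 274 and 275 CPM against 389, 399 and 398 CPM (log2 fold change -0.51, SE 0.06, adjusted p = 6.32e-07). Its targets Asns and Psat1, which make asparagine and serine, were 1.67-fold and 1.61-fold lower (adjusted p = 8.69e-07 and 1.68e-07). Slc7a11, the cystine transporter, measured 0.739, 0.992 and 0.601 CPM against 2.8, 2.95 and 2.35 CPM (log2 fold change -1.79, SE 0.23, adjusted p = 2.2e-06), and Mthfd2, of mitochondrial folate metabolism, was 2.13-fold lower (adjusted p = 8.36e-11). Atf5 was the member that went up (log2 fold change 0.66, SE 0.09, adjusted p = 5.16e-06). Asns and Psat1 stood at 74.9 ± 4.64 and 217 ± 15.2 CPM in the control (SD, n = 3), below both clones.

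Polycomb genes differed by less than 2-fold. Of 30 members, 10 were higher and 1 lower, with a median of 0.07 (10, 2 and 0.07 without culture B). Ezh2, the H3K27 methyltransferase, measured 55.5, 72.7 and 51.4 CPM against 52.9, 49.8 and 54.4 CPM, with overlap (log2 fold change 0.19, SE 0.15, adjusted p = 0.29). Its relative Ezh1 was 1.54-fold higher in the overexpressor, at 61.8 ± 4.98 against 40.2 ± 1.39 CPM (SD, n = 3, adjusted p = 1.19e-06). Eed, the reader subunit, was the 1 gene lower (1.45-fold, adjusted p = 0.00194), and Suz12, the scaffold subunit, was at 44, 78.1 and 54 CPM against 66.5, 64.6 and 57.4 CPM, with overlap (adjusted p = 0.823). Kdm2b, which recruits a Polycomb complex to CpG islands, was 1.54-fold higher (adjusted p = 1.5e-06), and so was Cbx6 (1.5-fold, adjusted p = 2.65e-06), whose reads may be shared with the overlapping gene Npcd. Of 24 SWI/SNF genes, 6 were higher and 9 lower (median -0.06), 2 of them at least 2-fold lower. Smarca2, 1 of the alternative ATPases, measured 2.2, 1.66 and 2.03 CPM against 7.92, 9.54 and 8.65 CPM (log2 fold change -2.15, SE 0.15, adjusted p = 8.91e-10), with 32.8 ± 1.41 CPM in the control (SD, n = 3). The other ATPase, Smarca4, did not pass the test (log2 fold change -0.06, adjusted p = 0.332). Smarcd3, the muscle and heart subunit that works with Myod1, was 1.76-fold lower (adjusted p = 7.46e-08).

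Among 18 histone deacetylases, 4 were higher and 5 lower (median 0.03), 5 and 4 without culture B (median 0.06), with 3 lower when overexpressor C, knockout A or knockout C was left out. Hdac9, a class II enzyme that restrains Mef2 factors, measured 8.7, 9.36 and 6.84 CPM against 2.75, 3.06 and 2.58 CPM (log2 fold change 1.57, SE 0.22, adjusted p = 8.48e-06), while Hdac4, of the same class, was 1.71-fold lower and Hdac11 3.84-fold lower (adjusted p = 9.94e-08 and 1.54e-10). Of 17 DNA methylation genes, 5 were higher and 4 lower (median 0.00), with 1 lower without overexpressor A or knockout C and 2 without knockout B. Dnmt3a, a de novo methyltransferase, was at 27.2 ± 0.31 against 17.2 ± 1.18 CPM (SD, n = 3, adjusted p = 2.99e-06), and Uhrf1, which guides maintenance methylation, was 1.39-fold higher (adjusted p = 0.00342). Zfp57, which protects imprints, was 1.5-fold lower (adjusted p = 3.83e-05).

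Imprinted genes on other chromosomes differed in both directions, with 3 of 19 higher and 8 lower (median -0.56), and 2 and 8 without culture B (median -0.51). Mest, a paternally expressed gene on chromosome 6 (chr6:30723547-30748465), measured 45.8, 39.8 and 46.9 CPM in overexpressor cultures and 0.258, 0.291 and 0.214 CPM in the knockout. The overexpressor was 174-fold higher (log2 fold change 7.43, SE 0.22, adjusted p = 1.82e-14), and the control, at 59.8 ± 5.73 CPM (SD, n = 3), was near the overexpressor, so the low value belonged to the knockout clone. Mest overlaps Copg2 on the opposite strand. Peg10, a retrotransposon-derived gene, went the other way, with 30.1, 38.4 and 29 CPM against 250.0, 229 and 248 CPM (log2 fold change -2.90, SE 0.11, adjusted p = 2.57e-13) and 266 ± 25 CPM in the control (SD, n = 3). H19, the maternal long noncoding RNA that rises in muscle differentiation, measured 8526, 7636 and 9045 CPM against 14160.3, 14600.5 and 14493 CPM (log2 fold change -0.78, SE 0.08, adjusted p = 2.72e-07), both above the control of 2969 ± 102 CPM (SD, n = 3). Igf2, its paternal neighbour, was 3.45-fold lower (adjusted p = 1.43e-08).

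Genes of the extracellular matrix differed in both directions. Of 25 collagen genes, 18 were lower and 3 higher in the overexpressor, with a median of -0.85 (19, 3 and -0.87 without culture B). Col1a1, the alpha 1 chain of type I collagen, measured 10.4, 9.04 and 10.1 CPM against 370.3, 571 and 345 CPM (log2 fold change -5.44, SE 0.21, adjusted p = 6.19e-12), whereas Col1a2, its partner chain, measured 2698, 2669 and 2788 CPM against 1951, 2152 and 1948 CPM (log2 fold change 0.43, SE 0.08, adjusted p = 0.000226). The partner chains of the same fiber thus differed in opposite directions, and the control was at 779 ± 24.6 and 2784 ± 4.06 CPM (SD, n = 3). Col6a1 and Col6a2, of microfibrillar collagen, were 8.25-fold and 17.5-fold lower (adjusted p = 3.17e-14 and 8.98e-15), and Col18a1, of basement membranes, was 3.18-fold higher (adjusted p = 1.24e-12).

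Of 30 matrix glycoproteins and proteoglycans, 11 were higher and 13 lower (median -0.09), and 11 and 12 without culture B (median -0.13). Fmod, the collagen-binding proteoglycan fibromodulin, measured 0.559, 0.41 and 0.693 CPM against 346, 374 and 296 CPM (log2 fold change -9.26, SE 0.34, adjusted p = 8.04e-12). Bgn, biglycan, measured 12.3, 9.73 and 13.6 CPM against 539, 569 and 514 CPM (log2 fold change -5.51, SE 0.17, adjusted p = 9.41e-14), with 3204 ± 97.7 CPM in the control (SD, n = 3), above both clones. In the other direction, Fn1, fibronectin, measured 9913, 10259 and 10771 CPM against 5095, 5900.3 and 5628 CPM (log2 fold change 0.90, SE 0.08, adjusted p = 1.96e-08), and Lama5 and Spp1, a laminin chain and osteopontin, were 2.6-fold and 2.56-fold higher (adjusted p = 2.6e-11 and 1.06e-06). Of 18 matrix proteases and inhibitors, 8 were higher, among them Mmp2 (2.91-fold, adjusted p = 5.46e-11) and Timp3 (2.95-fold, adjusted p = 1.09e-08), and 7 were lower, among them Adamts2, which processes procollagen (16.8-fold, adjusted p = 4.9e-14). Of 14 integrins, 5 were higher and 4 lower. Itga11, a collagen receptor, measured 0.299, 0.0431 and 0.37 CPM against 26.6, 37 and 27.5 CPM (log2 fold change -6.99, SE 0.32, adjusted p = 2.86e-11), and Itgb4, a laminin receptor, 9.2, 8.71 and 10.8 CPM against 0.925, 0.801 and 0.872 CPM (log2 fold change 3.47, SE 0.18, adjusted p = 1.38e-11).

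Of 20 genes of smooth muscle and targets of SRF and YAP, 15 were lower and 4 higher, with a median of -0.98 (the same counts and -1.07 without culture B). Acta2, the smooth muscle actin that immature myoblasts also express, measured 1522, 1304 and 1574 CPM against 6841, 7072 and 6858 CPM (log2 fold change -2.24, SE 0.10, adjusted p = 1.41e-12). Myl9 and Tagln were 9.18-fold and 7.05-fold lower (adjusted p = 3.24e-14 and 3.96e-12), and Cnn1, calponin, 22.3-fold lower (adjusted p = 7.93e-07). The controls lay between the clones for Acta2, at 3847 ± 57.6 CPM (SD, n = 3). Mrtfa, the coactivator of SRF, was 1.29-fold higher in the overexpressor (adjusted p = 0.000346).

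Most FGF genes were lower in the overexpressor. Of 20 tested, 15 were lower and 2 higher, with a median of -1.48 (16 and 2 of 21, and -1.51, without culture B). Fgf9, a ligand that had no more than 1 count in any overexpressor culture, measured 14.3, 12.9 and 14.3 CPM in the knockout, at least 214-fold apart (adjusted p = 2.09e-13). Fgf21, a stress hormone made by muscle, measured 1.08, 0.539 and 0.994 CPM against 11.1, 16.4 and 11.8 CPM (log2 fold change -3.91, SE 0.20, adjusted p = 4.41e-11), and Fgf7, a mesenchymal ligand, was 8.99-fold lower (adjusted p = 7.55e-09). The main receptor of myoblasts, Fgfr1, was 1.89-fold higher (adjusted p = 1.96e-09), while Fgfr3 and the feedback inhibitor Spry1 were 8.73-fold and 7.76-fold lower (adjusted p = 7.73e-14 and 2.16e-14).

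Of 34 Wnt genes, 12 were higher and 18 lower, with a median of -0.40 (the same counts and -0.48 without culture B). Sfrp2, a secreted Wnt inhibitor, measured 0.26, 0.324 and 0.508 CPM against 168, 136 and 153 CPM (log2 fold change -8.72, SE 0.23, adjusted p = 3.17e-14). Wnt10b, a ligand that holds precursors from the fat lineage, measured 14.1, 15.8 and 13.4 CPM against 1.27, 0.619 and 1.37 CPM (log2 fold change 3.73, SE 0.20, adjusted p = 2.49e-11), and the amplifier Rspo2 was 3.89-fold higher (adjusted p = 1.16e-08). Axin2, a feedback target of the pathway, was 9.82-fold lower (adjusted p = 1.43e-09). Of 18 Notch genes, 5 were higher and 8 lower (median -0.03). Notch2 and Lfng, a receptor and its sugar transferase, were 2.27-fold and 4.08-fold higher (adjusted p = 5.48e-10 and 2.94e-11), and the ligands Dll1 and Jag1 were 4.29-fold and 3.24-fold lower (adjusted p = 1.26e-11 and 4.87e-11), while the ligand Jag2 was 2.03-fold higher (adjusted p = 1.43e-10).

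In the TGF-beta family, 7 of 27 genes of TGF-beta, activin and myostatin were higher and 9 lower (median 0.00), and 4 of 19 BMP genes were higher and 6 lower (median -0.24). Without culture B these were 7 and 9 (median -0.02), and 4 and 7 (median -0.37). Fst, follistatin, the activin and myostatin antagonist that promotes muscle growth, measured 4.13, 4.14 and 6.12 CPM against 90.8, 105 and 90.9 CPM (log2 fold change -4.32, SE 0.13, adjusted p = 1.57e-14). Ltbp2, a latency-binding matrix protein, measured 256, 236 and 257 CPM against 20.9, 20.5 and 20 CPM (log2 fold change 3.61, SE 0.12, adjusted p = 2.97e-14), and its control level of 380.4 ± 20.8 CPM (SD, n = 3) was above both clones. Gdf15, a stress-induced hormone, measured 69.2, 62.7 and 67.1 CPM against 6.28, 4.41 and 5.3 CPM (log2 fold change 3.64, SE 0.16, adjusted p = 1.85e-12), with 6.2 ± 1.12 CPM in the control (SD, n = 3), so the overexpressor stood alone in its high value. Bmp4, a ligand, measured 0.0399, 0.0863 and 0.116 CPM against 34.5, 31.4 and 34.8 CPM (log2 fold change -8.69, SE 0.54, adjusted p = 3.16e-09). Its control was at 47.5 ± 1.91 CPM (SD, n = 3), near the knockout.

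Of 16 genes of the IGF axis, 5 were higher and 8 lower (median -0.20, and the same counts and -0.26 without culture B). Igf1, the growth factor, was at the floor in the overexpressor and at 6.0, 6.39 and 6.44 CPM in the knockout cultures, at least 97.1-fold apart (adjusted p = 9.57e-09). The binding protein Igfbp2 measured 2386, 1929.8 and 2295 CPM against 533, 484 and 546 CPM (log2 fold change 2.08, SE 0.13, adjusted p = 1.98e-10). Igfbp5, the main binding protein of muscle, measured 5562, 5281 and 5704 CPM against 3703, 3934 and 4061 CPM (log2 fold change 0.50, SE 0.07, adjusted p = 3.36e-06), both above the control of 736 ± 13.6 CPM (SD, n = 3). Igfbp4 was 4.34-fold lower and Igfbp6 2.97-fold higher (adjusted p = 1.48e-08 and 5.57e-09).

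**Figure D4:**
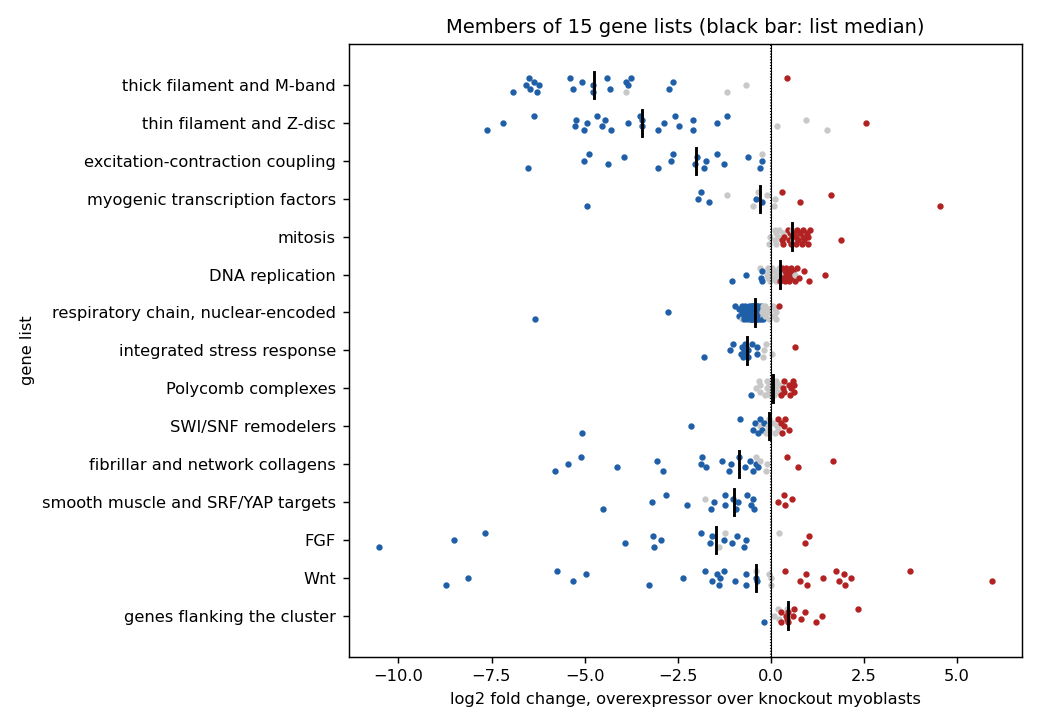
Log2 fold change, overexpressor over knockout (x axis), of each tested member of 15 gene lists (y axis). Red and blue points passed the test as higher or lower, grey points did not, black bars are list medians, and the dotted line is the median of all tested genes. The sarcomere lists lie furthest to the left, with medians of -4.76 and -3.47, and mitosis lies to the right, with 0.57.

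A set of genes was detected in 1 clone and at the floor in the other. With detection set at a mean of 1 CPM and the floor at 3 counts in each library, 66 genes were found in the knockout only and 36 in the overexpressor only. Of the 66, 13 lie on the X chromosome, which holds 632 of the 17912 tested genes, and 25 were also at the floor in the control. Of the 36, 2 lie on the X chromosome, and 17 had at least 1 CPM in the control. In myotubes, 15 of the 66 were still at the floor in the overexpressor and 18 had reached 1 CPM. Of the 36, 27 were still at the floor in knockout myotubes and 1 had reached 1 CPM. With a threshold of 5 CPM the numbers were 14 and 11, with 0 counts required in the silent clone 28 and 18, and without culture B 73 and 36.

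The difference between the clones also depended on stage. The day 3 myotube libraries of the same clones gave a second difference, and the test of myotube minus myoblast difference passed for 8370 of 17912 genes (46.7%). Myh3, with -6.24 in myoblasts, had -0.29 in myotubes (adjusted p = 0.2), a change of 5.94 (SE 0.29, adjusted p = 5.78e-10). Its myotube means were 6099.6 CPM in overexpressor cultures and 7466 CPM in the knockout. Ckm changed by 4.24, Mymk by 3.00 and Myog by 1.51 in the same direction (adjusted p = 3.44e-08, 1.02e-07 and 9.87e-06), so the myoblast differences of these genes were larger than those in myotubes. Cdkn1a went from -1.96 to -0.63, a change of 1.33 (SE 0.14, adjusted p = 7.82e-07). Ppargc1a was lower in the overexpressor at both stages, with -4.52 and -3.48 (SE 0.33, adjusted p = 1.78e-07 in myotubes), and its change of 1.04 did not pass the test (adjusted p = 0.114), although without culture B it was 1.49 (adjusted p = 0.0473). Ezh2 changed by 0.14 (adjusted p = 0.603). Meg3 and Mirg remained at 0 counts in knockout myotubes.

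Most tested neighbours of the cluster were higher in the overexpressor. Of 18 tested genes flanking it, 13 were higher and 1 lower, with a median of 0.45 (13, 1 and 0.47 without culture B). The lower gene, Cinp, did not pass without knockout B (adjusted p = 0.0538). It also did not pass with DESeq2 size factors (0.066), with the DESeq2 test (0.0577) or without the filter on low counts (0.0638). Dync1h1, the dynein heavy chain, measured 717, 749 and 796 CPM against 392, 436 and 457 CPM (log2 fold change 0.82, SE 0.07, adjusted p = 3.65e-08). Wars, a tRNA synthetase, measured 117, 106 and 114 CPM against 75.9, 75.9 and 72 CPM (log2 fold change 0.59, SE 0.07, adjusted p = 2.07e-06), and Ankrd9, an ankyrin-repeat protein, was 2.59-fold higher (adjusted p = 6.17e-09). Over the whole of chromosome 12, 231 of 647 genes were higher (35.7%) and 106 lower (16.4%), with a median of 0.16.

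Other chromosomes had shifts of the same size. The median was 0.18 on chromosome 13 and 0.11 on chromosome 5, and it was -0.29 on chromosome 14, -0.26 on chromosome 10 and -0.18 on chromosome 9. Genes of at least 5 CPM were then placed in 181 blocks of about 60 neighbours, an analysis chosen after the data had been seen. Block medians ran from -0.47 to 0.57 around an overall 0.02, with 16 blocks at or above 0.3 and 10 at or below -0.3. The lowest block lay on chromosome 5, from 23787711 to 31291116, where the knockout was above the control (0.53). The highest lay on the X chromosome, from 57383530 to 77796278, where the knockout was below the control (-0.40). On chromosome 12 all 6 blocks were between 0.18 and 0.44, with the block from 108554720 to 119262855, which contains the cluster, at 0.42. On chromosome 5 the 6 blocks from 108312609 to 151651242 had medians of 0.31 to 0.55, and in each the knockout was below the control (-0.22 to -0.49), while the overexpressor was within 0.04 to 0.18 of it. On chromosome 2 the 4 blocks from 119763304 to 158146436 were at 0.37 to 0.42, again with the knockout below the control (-0.35 to -0.38). On chromosome 14 the first 3 blocks were at -0.37 to -0.43, and there the overexpressor was below the control (-0.27 to -0.32). In these regions of chromosomes 5, 2 and 14, neighbouring genes therefore differed together, mainly in 1 clone or the other. On chromosome 12 the shift was split, with the block of the cluster above the control in the overexpressor (0.23) and below it in the knockout (-0.16). The number of copies of each chromosome in the clones was not analysed here.

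**Figure D5:**
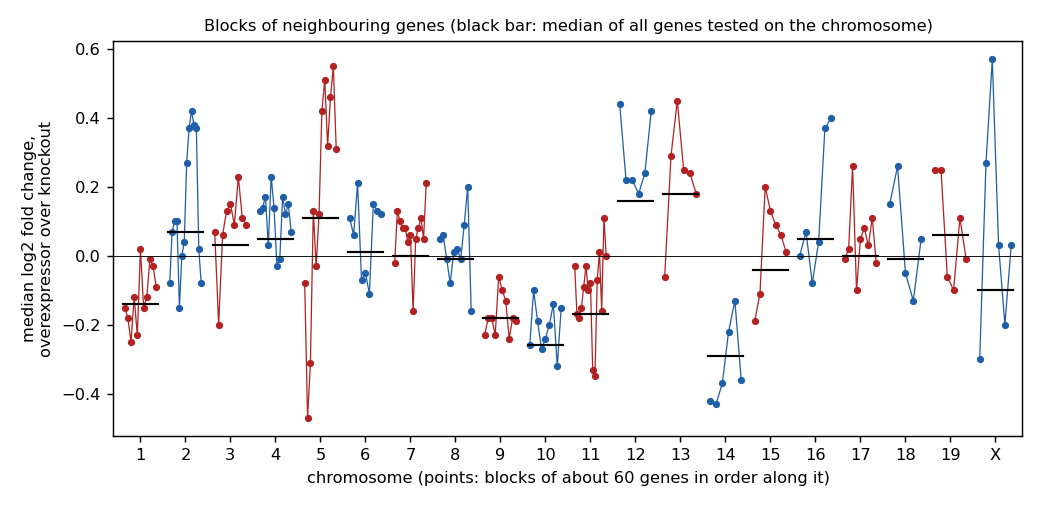
Median log2 fold change, overexpressor over knockout (y axis), of blocks of about 60 neighbouring genes, in order along each chromosome (x axis, blocks joined by lines and coloured alternately). Black bars are the medians of all tested genes on the chromosome. All blocks of chromosome 12 are above 0, the distal blocks of chromosome 5 lie at 0.31 to 0.55, and all blocks of chromosome 14 are below 0.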

How the data were processed

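Polyadenylated RNA of C2C12 cells was sequenced, and the values used are the raw counts that the authors deposited for each Ensembl gene and library. Reads were aligned with STAR 2.7.9a to mm10 and counted with featureCounts (Subread 2.0.3), with FastQC 0.11.7 and DESeq2 1.32.0 also listed, per the submitters' processing notes. The authors' annotation and their setting for strand are not given in the sources used here. Of 55450 gene IDs, 55190 matched GENCODE M21 (GRCm38), which gave symbols and coordinates, and the unmatched 260 held 0.00589% of the counts. The deposited log2-scale table of transformed values was not used.

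Counts of all 18 libraries were fitted with edgeR 4.0.16 in R 4.3.3 (TMM factors, filterByExpr by group, robust quasi-likelihood test, 6 groups, 12 residual degrees of freedom). P-values are Benjamini-Hochberg adjusted over 17912 genes, with a threshold of 0.05. The standard error is the log2 fold change divided by the root of its F value. Without assumptions on the spread across genes, 3 against 3 libraries cannot go below an exact two-sided permutation p of 0.1. On simulated data for this comparison (17643 genes), 56.7%, 94% and 100% of genes changed 1.5-fold, 2-fold and 4-fold were recovered, and 11 of 17443 unchanged genes were called. The changed genes were drawn from those with more counts, and all others were set equal between the clones. For each gene, 1 spread taken from the fit served both clones. These rates therefore do not cover genes with few counts, a wide difference between clones or a spread that differs between them. Members and the 48 gene lists were chosen with earlier results of these data known, so a list's direction is not independent evidence. The genes named are the cluster genes, 8 fixed muscle and chromatin genes, the 10 highest and 10 lowest over all genes and up to 3 each way per list (at least 5 CPM in the higher clone, no overlap of cultures, ordinary symbols), and defining members given to account for a list. Folds of means are the higher over the lower mean CPM, and folds against a clone with at most 3 counts in every library are lower bounds set at that floor. Alternatives were other scalings and filters, DESeq2 1.42.0, a replicate block, the 6 libraries alone, a test against 2-fold, and each library left out. The mitochondrially encoded genes were not analysed here.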

Additional observations from a re-analysis of the deposited data

Results flagged for a closer look

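For 8 of 12 genes fixed for this purpose, the clone difference in myotubes differed from that in myoblasts by a test of the difference itself, against 46.7% of all tested genes. On the log2 scale the change, myotubes minus myoblasts, was 5.94 for Myh3, 4.24 for Ckm, 3.00 for Mymk, 1.51 for Myog and 1.33 for Cdkn1a. In each of these 5 the overexpressor was lower at both stages and the gap was narrower in myotubes, although for Myh3 and Mymk the myotube difference did not pass the test (adjusted p = 0.2 and 0.0552). Myod1 changed by -0.62, from 0.08 in myoblasts to -0.53 in myotubes. Rtl1 changed by -2.71, and by -2.30 without overexpressor culture B, where it did not pass (adjusted p = 0.0554). Rian changed by -5.21, a value set by 0 counts in knockout myoblasts against 1 to 4 counts in each knockout myotube library, which are at or near the floor. No outlying culture was tested for, since each group holds 3 libraries.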

How the results depend on the processing

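The number of genes called stayed between 8691 and 9557 under other scalings, filters and tools, apart from the test against a 2-fold change. That test called 2127 genes, 873 higher and 1254 lower, because it asks for more than a difference from 0. Leaving out 1 library at a time gave 8575 to 9038 calls, 4192 to 4489 higher, 4378 to 4549 lower and 3249 to 3363 of at least 2-fold. Another scaling moved the median of all genes from -0.022 to -0.001 (DESeq2 size factors) or -0.037 (library totals). With a replicate block there were 9085 calls, of which 9054 were among the main ones. Cultures of the same letter showed no shared deviation (correlations -0.010, -0.016 and -0.001), and those of different letters had -0.015 to 0.023. Such correlations cannot tell whether cultures of 1 letter were grown or prepared together, and the labels do not say. Genes found in 1 clone only numbered 66 and 36, and 28 and 18 when 0 counts were required, or 14 and 11 at 5 CPM, since both rules admit fewer genes.

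Of the 290 genes given, the sign turned for Top2a without overexpressor A (0.0140) or C (0.07, range -0.22 to 0.07 over libraries left out), for Suz12 without overexpressor A (0.07, range -0.36 to 0.07), and for the stage difference of Mirg with DESeq2 size factors (0.03), none of which passed the test in the main analysis. The cause was not tested. The test against 2-fold took away the call of 135 of the 290. No other single setting cost more than 6 calls among them. With a clone near the floor of 3 counts and the other far above, depth limits the fold's size and not its direction. With both clones near the floor, depth limits the direction as well.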

Other observations

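Of 29 genes of interferon response and antigen presentation, 11 were higher and 3 lower in the overexpressor, with a median of 0.38 (11, 2 and 0.49 without culture B). B2m, the light chain of class I molecules, measured 305, 277 and 262 CPM against 186, 184 and 191 CPM (log2 fold change 0.59, SE 0.06, adjusted p = 1.08e-07), and H2-D1, a class I heavy chain, was 1.83-fold higher (adjusted p = 1.56e-07), with close copies in its family. Tap2, the peptide transporter, was 2.14-fold lower (adjusted p = 4.48e-06). Among 27 cytokines and chemokines, 12 were higher and 5 lower (median 0.00). Il34, a ligand of the macrophage receptor Csf1r, was 3.01-fold higher (adjusted p = 1.98e-10). Ccl2, a monocyte chemokine, was 2.33-fold lower (adjusted p = 6.01e-05). Of 25 Hox genes, 4 were higher and 13 lower (median -0.30), with Hoxa7 at a log2 fold change of 0.51 (adjusted p = 3.03e-05).

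Some genes best known from other tissues separated the clones. Tubb3, a neuronal tubulin, measured 204, 175 and 192 CPM in the overexpressor and 3.51, 3.48 and 3.61 CPM in the knockout (log2 fold change 5.75, SE 0.12, adjusted p = 4.44e-16), with 45.6 ± 4.94 CPM in the control (SD, n = 3). Krt14, a basal keratin, measured 122, 104 and 121 CPM against 12.8, 9.58 and 11.1 CPM (log2 fold change 3.38, SE 0.15, adjusted p = 2.14e-12). Pdgfrb, a receptor of mesenchymal cells, went the other way, with 55.8, 50.7 and 56.3 CPM against 483, 523 and 513 CPM (log2 fold change -3.22, SE 0.07, adjusted p = 7.81e-16). Pparg and Cebpa, regulators of fat cells, differed in opposite directions (log2 fold changes 1.65 and -1.76, adjusted p = 3.97e-10 and 2.25e-10).

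Of 20 ER chaperone genes, 6 were higher and 9 lower (median -0.27), and 4 and 10 without culture B (median -0.36). Of 22 genes of cholesterol synthesis, 7 were higher and 5 lower (median 0.10). Of 20 p53 targets, 6 were higher and 7 lower (median -0.13), with Pmaip1, a pro-apoptotic protein, 3.66-fold higher and Eda2r, a death-domain receptor, 2.69-fold lower (adjusted p = 7.21e-06 and 4.92e-06).

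By gene class, 58.6% of 13736 protein-coding genes, 36.5% of 1573 long noncoding genes and 32% of 2136 pseudogenes were called. Between Dlk1 and Dio3 the annotation holds 116 genes, 90 of them microRNA or small nucleolar RNA genes. In the clones' myoblasts, 25 of these 90 had any count, all of them in the overexpressor and none in the knockout. Each had at most 18 counts over the 3 overexpressor cultures. A polyadenylated library does not measure their mature products. Within the same interval Gm34081, a noncoding gene, had 937 counts over the 3 overexpressor cultures and 8 over the knockout cultures.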
